A study of Mus musculus with 45 samples.

Results

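The endoplasmic reticulum (ER) folding and secretion machinery was followed across 45 bulk RNA-seq libraries of wild-type mouse liver lysate. It was represented by 36 genes, taken by name from a set list of ER folding, degradation, translocation and unfolded protein sensor genes, out of 24946 genes in the deposited table. Mice received the Lieber-DeCarli liquid diet, a standard feeding model of alcohol-associated liver injury. Libraries labelled peak followed 6 weeks of control or ethanol diet. Ethanol-labelled libraries of early and late resolution followed 6 weeks of ethanol diet and then 3 days or 2 weeks of control diet. Each of the 3 stages had control- and ethanol-labelled libraries with a female or male label, which gave 12 groups, 9 of 4 libraries and 3 of 3 libraries (early ethanol female, late ethanol female and late ethanol male). The labels gave no age or strain. Whether numbered libraries stand for different animals was not stated. The p-values therefore measure only the spread between these libraries, which may be technical.

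Proteins bound for secretion enter the ER through the Sec61 channel. There the chaperone BiP (Hspa5) and its J-domain partners, the lectin chaperones and the disulfide isomerases fold them, and ER-associated degradation removes those that fail. Unfolded protein in the ER activates the sensors Ire1 (Ern1), which splices Xbp1 mRNA, Atf6 and Perk, which raise folding and degradation genes. Hepatocytes secrete most plasma proteins and carry a large rough ER.

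The sex-chromosome transcripts followed the diet label and not the sex label. The X-inactivation transcript Xist exceeded the Y-linked Eif2s3y in 21 of 21 ethanol-labelled libraries, and Eif2s3y exceeded Xist in 23 of 24 control-labelled libraries. The exception was late control female 1. In all, 22 of 45 libraries disagreed with their sex label, 11 labelled female and 11 labelled male. Groups are therefore named by their labels throughout. A difference between ethanol and control labels cannot be told apart from a difference between the sexes that these transcripts mark. These transcripts give the sex labels no support either, since male- and female-labelled libraries each held both patterns. What separates the libraries labelled male from those labelled female, diet included, cannot be told apart from these files, and whether the diet and sex labels are exchanged was not tested. Every comparison of sex labels below is to be read with that limit.

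Hepatocyte markers were high in every library (5 of 5 markers, summed 68100 to 193000 TPM, a transcript abundance corrected for length and scaled to the same total in each library). Albumin alone averaged 117000 TPM and the next marker, Apoa1, 12500 TPM, so this sum mostly follows albumin, here and below. Plasma cells, another cell type rich in ER, had 4 of 8 markers in the table, and these summed to 0.363 to 15.4 TPM. The highest sum was in late ethanol male 1, and the next was 2.65 TPM. The 9 pancreatic acinar markers summed to 0.0684 to 2.58 TPM.

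Promoters were matched in RefSeq (GRCm38.p6) for 29 of the 36 genes. They were searched on both strands for the ER stress response element, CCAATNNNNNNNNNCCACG, and for the second such element, ERSE-II, ATTGGNCCACG. A window ran from 250 bases before to 50 bases after the start. The first element was in 10 of the 29 members (34.5%) and in 37 of 27025 genes with a promoter in the table (0.137%). These members were Hspa5, Hsp90b1, Dnajc3, Creld2, Calr, Canx, Pdia6, Ero1lb, Syvn1 and Derl3. ERSE-II was in Herpud1 and Dnajb11, 2 of 29 members (6.9%), and in 12 of 27025 genes (0.0444%). Its last bases, CCACG, are also the last bases of the first element, and this short run alone was in 26 of 29 members (89.7%) and in 35.5% of genes. These 5 promoters are shown because their genes carry the differences described below. They are the 250 bases before the start, 5′ to 3′ along the gene, and capitals mark the fixed ends of the element, which are reversed (CGTGG and ATTGG) where it lies on the other strand.
Hspa5 promoter: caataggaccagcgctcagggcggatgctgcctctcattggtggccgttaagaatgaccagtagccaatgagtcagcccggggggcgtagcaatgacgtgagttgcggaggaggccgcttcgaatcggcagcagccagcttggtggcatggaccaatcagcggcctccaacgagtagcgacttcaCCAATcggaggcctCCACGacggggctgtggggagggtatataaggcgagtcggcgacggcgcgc
Creld2 promoter: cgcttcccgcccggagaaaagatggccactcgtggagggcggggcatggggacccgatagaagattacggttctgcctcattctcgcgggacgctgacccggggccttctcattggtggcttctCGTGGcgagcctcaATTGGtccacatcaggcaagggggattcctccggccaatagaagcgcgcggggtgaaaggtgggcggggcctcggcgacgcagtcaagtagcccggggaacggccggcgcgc
Pdia6 promoter: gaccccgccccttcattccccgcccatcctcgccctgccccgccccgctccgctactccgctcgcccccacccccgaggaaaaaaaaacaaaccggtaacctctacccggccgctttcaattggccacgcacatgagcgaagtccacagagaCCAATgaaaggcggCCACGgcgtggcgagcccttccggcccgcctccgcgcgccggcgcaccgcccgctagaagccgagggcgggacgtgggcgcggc
Derl3 promoter: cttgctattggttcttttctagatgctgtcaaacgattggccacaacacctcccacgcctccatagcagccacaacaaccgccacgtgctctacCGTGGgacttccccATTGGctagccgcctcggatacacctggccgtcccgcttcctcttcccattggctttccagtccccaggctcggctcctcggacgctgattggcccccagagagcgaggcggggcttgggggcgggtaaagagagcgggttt
Herpud1 promoter: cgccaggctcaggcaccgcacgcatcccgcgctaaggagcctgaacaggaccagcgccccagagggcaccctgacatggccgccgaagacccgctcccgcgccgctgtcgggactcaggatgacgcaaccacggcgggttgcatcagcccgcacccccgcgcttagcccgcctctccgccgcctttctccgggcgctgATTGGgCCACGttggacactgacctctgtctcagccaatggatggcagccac
In GRCm38.p6 these windows lie at chr2:34771840-34772089 (+ strand), chr15:88819396-88819645 (+ strand), chr12:17266339-17266588 (+ strand), chr10:75893148-75893397 (+ strand) and chr8:94386179-94386428 (+ strand). The first base of the match stood at -65 from the start in Hspa5, -126 in Creld2, -98 in Pdia6, -156 in Derl3 and -52 in Herpud1. A match describes letters in the window and no binding was measured.

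Among members, calreticulin (Calr, a lectin chaperone that holds glycoproteins for refolding) had the highest level, with a mean of 842 TPM over all libraries. The lumenal chaperone Hspa5 followed with 410 TPM, then Herpud1, which scaffolds the degradation complex, with 370 TPM, the chaperone Hsp90b1 (Grp94) with 363 TPM and the isomerase P4hb with 285 TPM. TPM correct for transcript length, so these levels can be set beside each other. The means of the 8 disulfide isomerases and oxidases ran from 10.3 TPM (Ero1lb, which reoxidises the isomerases) to that of P4hb. The 6 translocation genes ran from 20.5 TPM (Ssr1) to 141 TPM (Ssr2), both parts of the translocon-associated TRAP complex. The sensors Atf6 and Ern1 had 17.5 and 9.92 TPM, and Xbp1, the Ire1 target grouped with them, had 56.0 TPM. Derl3, a channel subunit for degradation, averaged 1.88 TPM. The ER sheet protein Ckap4 averaged 0.266 TPM, ran from 0.0900 to 0.621 TPM, and was under the limit of 0.5 TPM for testing, so 35 members were tested among 11244 genes.

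The group means of Derl3 spanned 10-fold, those of Sdf2l1 (a BiP cofactor) 6.33-fold and those of Creld2 (a secreted ER stress protein) 4.98-fold. Those of Erp44 and P4hb spanned 1.25-fold and 1.29-fold. The highest group mean was in late control male for 14 members, in early control male for 10 and in peak ethanol male for 6. Single libraries stood apart. Early control male 2 held the highest value of 13 members, among them Hspa5 at 1220 TPM, where the other 3 libraries of its group had 380, 612 and 615 TPM. Late ethanol female 1 held the lowest value of 15 members.

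**Figure D1:**
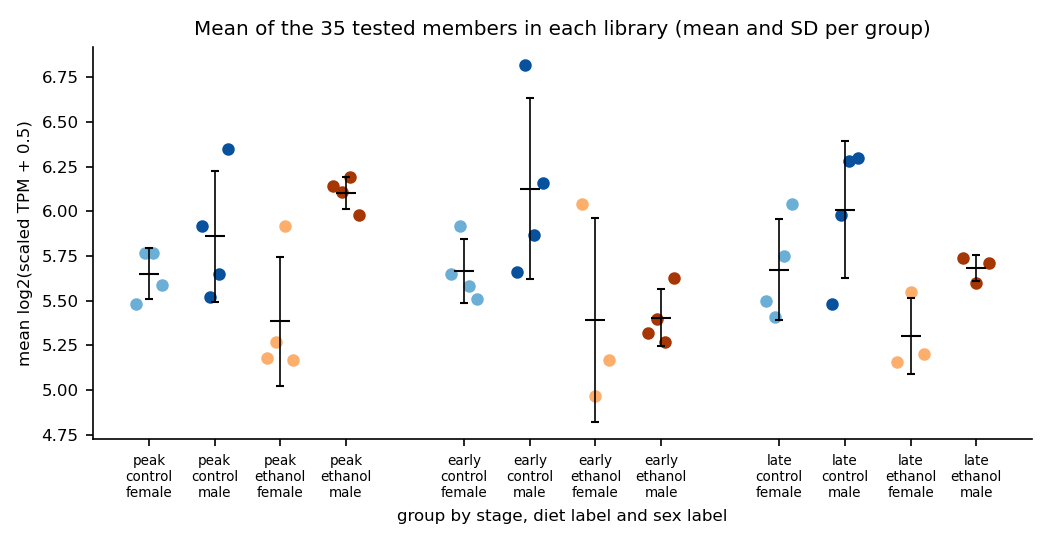
Mean over the 35 tested members of log2(TPM + 0.5) after median-of-ratios scaling (vertical axis) in each of the 45 libraries (points), by group, with the group mean and SD (bars). Peak ethanol male sat between 5.98 and 6.19, and early control male spread from 5.66 to 6.82.

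Differences between labels are given on the log2(TPM + 0.5) scale, which understates changes of low genes. They come from limma with a mean for each group, and are averaged over the other label. A gene is called at a Benjamini-Hochberg adjusted p under 0.05 over all genes tested. TPM are relative to each library's total, and in some comparisons the median of all genes was far from 0. Between sex labels at peak the all-gene median was -0.29 as deposited and 0.01 after scaling the libraries by the median of their gene ratios, and between diet labels at early resolution it was 0.13 and -0.03. Counts of members called between labels at each stage are therefore given as deposited and again with this scaling. Counts at an unadjusted p under 0.05, and counts with 1 library left out, are given below without the share of all genes. They are not read as results about the members. In bulk liver, fewer cells of a type and less RNA per cell cannot be told apart.

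At peak, ethanol-labelled libraries had more Dnajb9 and Xbp1 and less Derl3, Sec11c, Derl2, Pdia6 and Pdia3 than control-labelled libraries. Dnajb9, a J-domain partner that returns BiP to Ire1, was higher by 0.91 ± 0.28 (SE, adjusted p = 0.014, limma), or 1.88-fold. Xbp1, the target of Ire1 splicing, was higher by 0.67 ± 0.21 (adjusted p = 0.016, limma). The other members called higher were Edem1, which extracts misfolded glycoproteins (0.46), the channel subunit Sec61a1 (0.42) and Ssr2 (0.40). Derl3 was lower (-1.06 ± 0.35, adjusted p = 0.022, limma). Sec11c, a signal peptidase subunit, differed by -0.43, Derl2, a channel subunit, by -0.38, and the isomerases Pdia6 and Pdia3 by -0.33 and -0.27. The BiP gene itself was not called (0.31 ± 0.24).

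In all, 5 of 35 members were called higher, beside 17.3% of all genes, and 5 lower, beside 9.81%. With the scaling 1 was higher (Dnajb9), beside 15% of genes, and the same 5 names were lower, beside 20.7%. As deposited the share higher was near the background. The median member difference was 0.13, against 0.05 over all genes, and 0.04 against -0.02 with the scaling.

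Dnajb9 read 58.5, 63.5, 47.2 and 58.3 TPM in peak ethanol male and 14.8, 10.7, 19.5 and 41.3 TPM in peak control male. In peak ethanol female it read 26.6, 31.6, 70.4 and 19.1 TPM and in peak control female 23.4, 31.5, 29.3 and 24.4 TPM. The male-labelled groups did not overlap, while the female-labelled groups did, and ethanol female 2 and 3 exceeded every control female library. Sec11c read 26.6, 33.9, 32.2 and 36.3 TPM in ethanol female and 31.4, 30.6, 32.5 and 33.7 TPM in ethanol male. Control female had 34.5, 46.6, 50 and 48.8 TPM and control male 41.0, 44.7, 43.4 and 38.9 TPM. All 8 ethanol-labelled libraries lay below the mean of the control libraries with their sex label, but ethanol female 4 lay above control female 1. Derl3 lay between 0.265 and 1.10 TPM in ethanol-labelled libraries and between 0.293 and 4.49 TPM in control-labelled libraries, at levels where few reads can be expected.

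Dnajb9, Ssr2, Sec11c and Derl2 were called whichever of the 16 peak libraries was left out. Xbp1 lost its call without peak ethanol female 3 (0.51, adjusted p = 0.059, limma), and Derl3 without peak control female 2 or 3 or peak control male 1. Of the 16 fits, Sec61a1 and Pdia6 were called in 11, Edem1 in 9 and Pdia3 in 4. The count of 10 was 6 without peak control male 1. Hepatocyte markers summed to 133000 to 175000 TPM in the ethanol-labelled and 110000 to 143000 TPM in the control-labelled peak libraries, and their part was not tested.

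**Figure D2:**
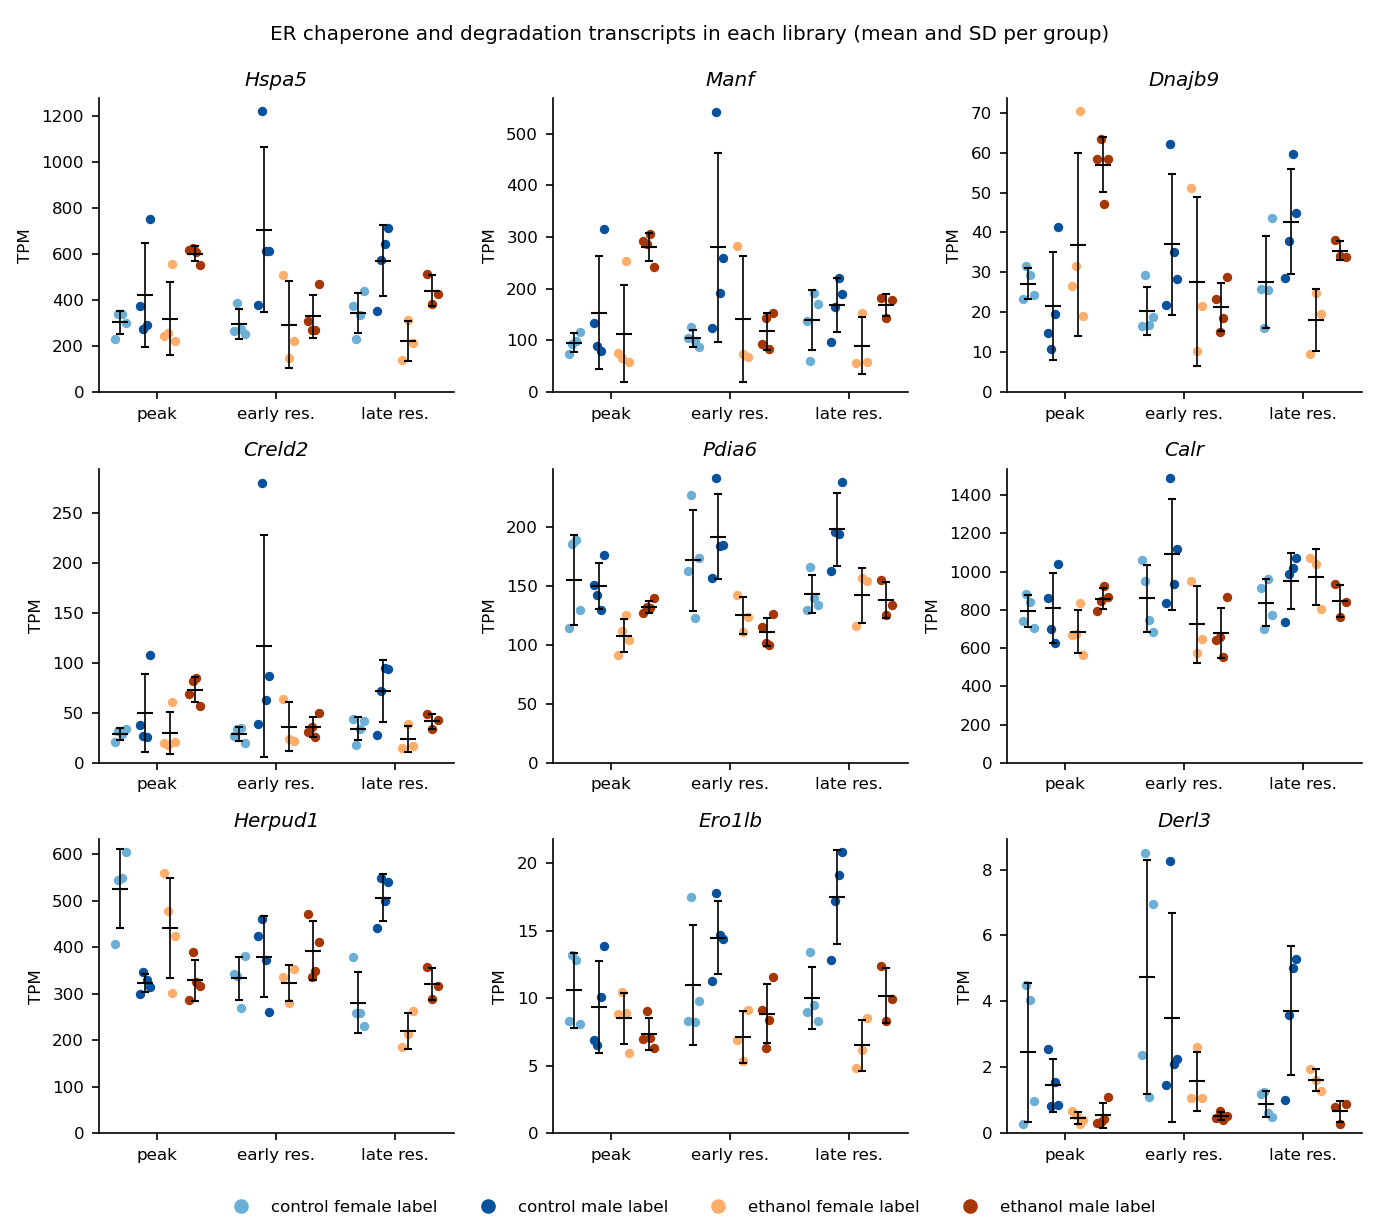
TPM (vertical axes, from 0) of 9 members in each library (points) by stage and by diet and sex label, with the group mean and SD (bars). Dnajb9, Manf and Creld2 were tight and high in peak ethanol male, Creld2 at 57.1 to 85.1 TPM, while 1 early control male library reached 281 TPM of Creld2.

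At early resolution the ethanol-labelled libraries had lower levels of 3 of 8 isomerases and oxidases (Pdia6, Pdia3 and Ero1lb), of Calr, of Sdf2l1 and of Derl3, and no member was called higher. Pdia6 differed by -0.60 ± 0.12 (adjusted p = 0.00046, limma) and Pdia3 by -0.48 ± 0.10 (adjusted p = 0.0012, limma). Sdf2l1 differed by -1.21 ± 0.30 (0.434-fold, adjusted p = 0.0053, limma), Derl3 by -1.40 ± 0.37, Ero1lb by -0.62 ± 0.18 and Calr by -0.47 ± 0.13. Thus 6 of 35 members were called lower, beside 2.46% of genes, and 0 higher, beside 14.3%. With the scaling 16 were lower, beside 9.12% of genes, and 0 higher, beside 7.62%. The 10 names that the scaling added were Hsp90b1, Dnajb11, Canx, P4hb, Pdia4, Erp44, Sel1l, Derl2, Sec11c and Ern1. The median member difference was -0.23, against 0.13 over all genes, and -0.41 against -0.03 with the scaling. By role, 6 of 8 isomerases and oxidases, 2 of 2 lectin chaperones, 3 of 9 lumenal chaperones and 3 of 7 degradation genes were lower with the scaling.

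Pdia6 read 142, 111 and 124 TPM in early ethanol female and 115, 102, 100 and 126 TPM in early ethanol male. Control libraries read 163, 227, 123 and 174 TPM (female) and 157, 242, 184 and 185 TPM (male). All 7 ethanol-labelled libraries lay below the mean of their control group, and the groups overlapped only through control female 3 at 123 TPM. Sdf2l1 read 4.70, 3.76 and 3.07 TPM in ethanol female and 2.22, 5.98, 2.72 and 5.14 TPM in ethanol male. In control libraries it read 6.24, 10.4, 5.99 and 5.85 TPM (female) and 4.53, 39.2, 9.98 and 13.2 TPM (male). Control male 2 was the high library here, and without any 1 library the difference of Sdf2l1 lay between -1.43 and -0.94 and stayed called. Ero1lb read 6.88, 5.33 and 9.13 TPM and 9.12, 6.29, 8.4 and 11.6 TPM in the ethanol female and male libraries. Its control values were 8.28, 17.5, 8.26 and 9.79 TPM (female) and 11.3, 17.8, 14.7 and 14.4 TPM (male), so that these groups overlapped. Hspa5, the main chaperone, had a difference of -0.60 ± 0.25 that was not called (adjusted p = 0.097, limma).

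Pdia6, Pdia3, Sdf2l1 and Derl3 were called whichever of the 15 early libraries was left out. Calr and Ero1lb lost the call without early ethanol female 2. With the scaling the count of 16 was 6 without early ethanol female 2, 8 without early control male 2, and 24 without early ethanol female 1. It was 9 without early control female 2 or early ethanol male 2, and 10 without early ethanol female 3, early control male 4 or early ethanol male 1. Hepatocyte markers summed to 127000 to 184000 TPM in the ethanol-labelled and 68100 to 148000 TPM in the control-labelled early libraries, and Kupffer cell markers to 216 to 362 TPM and 84.3 to 252 TPM. Their part in these differences was not tested.

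At late resolution 2 of 35 members were called lower with the ethanol label, beside 3.98% of genes, and 0 higher, beside 8.82%. These were Ero1lb (-0.67 ± 0.18, adjusted p = 0.013, limma) and Herpud1 (-0.50 ± 0.13, adjusted p = 0.010, limma). With the scaling 5 were lower, beside 12.5% of genes, and 0 higher, beside 8.56%. The scaling added Sel1l, the adaptor of the degradation ligase, Ssr3 of the TRAP complex, and Atf6. Both counts are near the background, and the median member difference was -0.26, against 0.05 over all genes (-0.35 against -0.02 with the scaling). Herpud1 read 185, 214 and 262 TPM in late ethanol female and 358, 289 and 317 TPM in late ethanol male. Control libraries read 379, 259, 258 and 230 TPM (female) and 441, 549, 499 and 540 TPM (male). The male-labelled groups did not overlap, with every control library above every ethanol library.

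Herpud1 was called in all 14 fits that left out 1 late library, and Ero1lb lost its call without late ethanol female 1. The count as deposited was 1 without that library and 7 without late ethanol female 3. With the scaling the count of 5 was 10 without late control female 1 or late control male 1, 9 without late ethanol female 3 and 8 without late control female 3. It was 3 without late control female 2 or late ethanol female 2, and 2 without late control female 4, late ethanol female 1, late control male 3 or 4, or any of the 3 late ethanol male libraries. Late control female 1 is the library whose sex-chromosome transcripts went against the other control-labelled libraries. The hepatocyte sum was 168000 to 193000 TPM in ethanol-labelled and 95500 to 174000 TPM in control-labelled late libraries, and its part was not tested.

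The change of the diet difference from peak was tested itself. At early resolution 0 members were called (beside 0% of genes, and beside 0.178% with the scaling, where 0 members were called too), with 11 at an unadjusted p under 0.05. The share of all genes at that unadjusted threshold is not given here. Without early ethanol female 1, the number called at the adjusted p was 6 in place of 0. At late resolution Edem1 alone was called, lower by -0.80 ± 0.24 against peak (adjusted p = 0.048, limma), beside 3.98% of genes, and it kept the call in 8 of 30 fits that left out 1 library. The count over these fits ran from 0 to 5, with 5 without peak control male 4 or late ethanol female 3. With the scaling Edem1 and Atf6 were called, beside 12% of genes. Dnajb9 had the largest member value, -1.34 ± 0.41, which was not called (adjusted p = 0.055, limma). Both changes are set against the same peak libraries.

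Between the sex labels at peak, male-labelled libraries had more of 3 of 9 lumenal chaperones and cochaperones, Manf, Creld2 and Hspa5. Manf, a secreted BiP-binding factor, was higher by 1.03 ± 0.32 (2.04-fold, adjusted p = 0.0093, limma). Creld2 was higher by 1.00 ± 0.33 (adjusted p = 0.014, limma), Hspa5 by 0.70 ± 0.24 (adjusted p = 0.016, limma) and Ssr1 by 0.35 ± 0.14. Herpud1 was lower (-0.54 ± 0.12, adjusted p = 0.00074, limma), as was P4hb (-0.26 ± 0.09), but with the scaling P4hb was at 0.09 and Herpud1 at -0.19, and neither was called.

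As deposited 4 of 35 members were called higher, beside 4.26% of genes, and 2 lower, beside 46.7%. With the scaling 21 were higher, beside 16.2% of genes, and 0 lower, beside 15.5%. The median member difference was 0.14, against -0.29 over all genes, and 0.49 against 0.01 with the scaling. With the scaling the higher members were 6 of 6 translocation genes, 6 of 9 lumenal chaperones, 4 of 7 degradation genes and 3 of 8 isomerases and oxidases. Among the higher members were also 1 of 2 lectin chaperones and 1 of the 3 genes grouped as sensors. That gene was Xbp1, the target of Ire1 splicing, and the sensors Atf6 and Ern1 were not called. Other names among the higher members follow. Hyou1, a large chaperone that also serves BiP as exchange factor, was higher with the scaling (0.99), as were Syvn1, the ubiquitin ligase of ER-associated degradation (0.78), and Xbp1 (0.78). Txndc5, Erp44, Derl2 and Sec11c were called higher with the scaling and had negative differences as deposited, so their direction rests on the scaling.

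Hspa5 read 618, 627, 610 and 553 TPM in peak ethanol male and 244, 257, 556 and 221 TPM in peak ethanol female. In control male it read 373, 276, 290 and 754 TPM, and in control female 230, 339, 341 and 301 TPM. All 4 ethanol male libraries and control male 4 were high, ethanol female 3 lay within the range of ethanol male, and the other peak libraries stayed at or below 373 TPM. Manf read 292, 286, 305 and 242 TPM in ethanol male and 76.0, 65.9, 253 and 58.0 TPM in ethanol female. Control male had 134, 88.5, 79.0 and 315 TPM and control female 73.6, 92.3, 99.8 and 117 TPM. The same 2 libraries, ethanol female 3 and control male 4, stood apart for Manf as for Hspa5. As deposited Herpud1 ran the other way, with 286 to 390 TPM in the 8 male-labelled and 302 to 605 TPM in the 8 female-labelled libraries. With the scaling its difference was not called, as given above.

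Within the ethanol label alone, 23 of 35 members were higher in male-labelled libraries with the scaling, beside 15.6% of genes, and 6 as deposited, beside 4.24%. There 0 members were lower with the scaling, beside 15.8%, and 1 as deposited, beside 45.2%. Within the control label 0 members were higher with either scale, beside 0.356% of genes as deposited and 1.33% with the scaling. Herpud1 was the 1 member lower as deposited, beside 2.54%, and 0 were lower with the scaling, beside 1.75%. The difference between these diet labels was itself tested, and 0 of 35 members were called (beside 0.16% of genes), with 1 at an unadjusted p under 0.05 and 6 with the scaling. Its largest member value was that of Dnajb9, 1.28 ± 0.56 (adjusted p = 0.34, limma). Neutrophil markers summed to 91.3 to 133 TPM in peak ethanol male and 3.21 to 66.3 TPM in the other peak groups, and their part was not tested. This sum mostly follows S100a8 and S100a9, which averaged 15.4 and 15.7 TPM over all libraries, each other marker at most 0.767 TPM.

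Manf, Creld2, Herpud1 and P4hb were called whichever of the 16 peak libraries was left out, and Hspa5 lost the call without peak control male 4. Ssr1 was called in 7 of 16 fits. The count as deposited was 12 without peak ethanol female 3. With the scaling the count ranged from 14 without peak control male 4 to 23 without peak ethanol female 3.

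**Figure D3:**
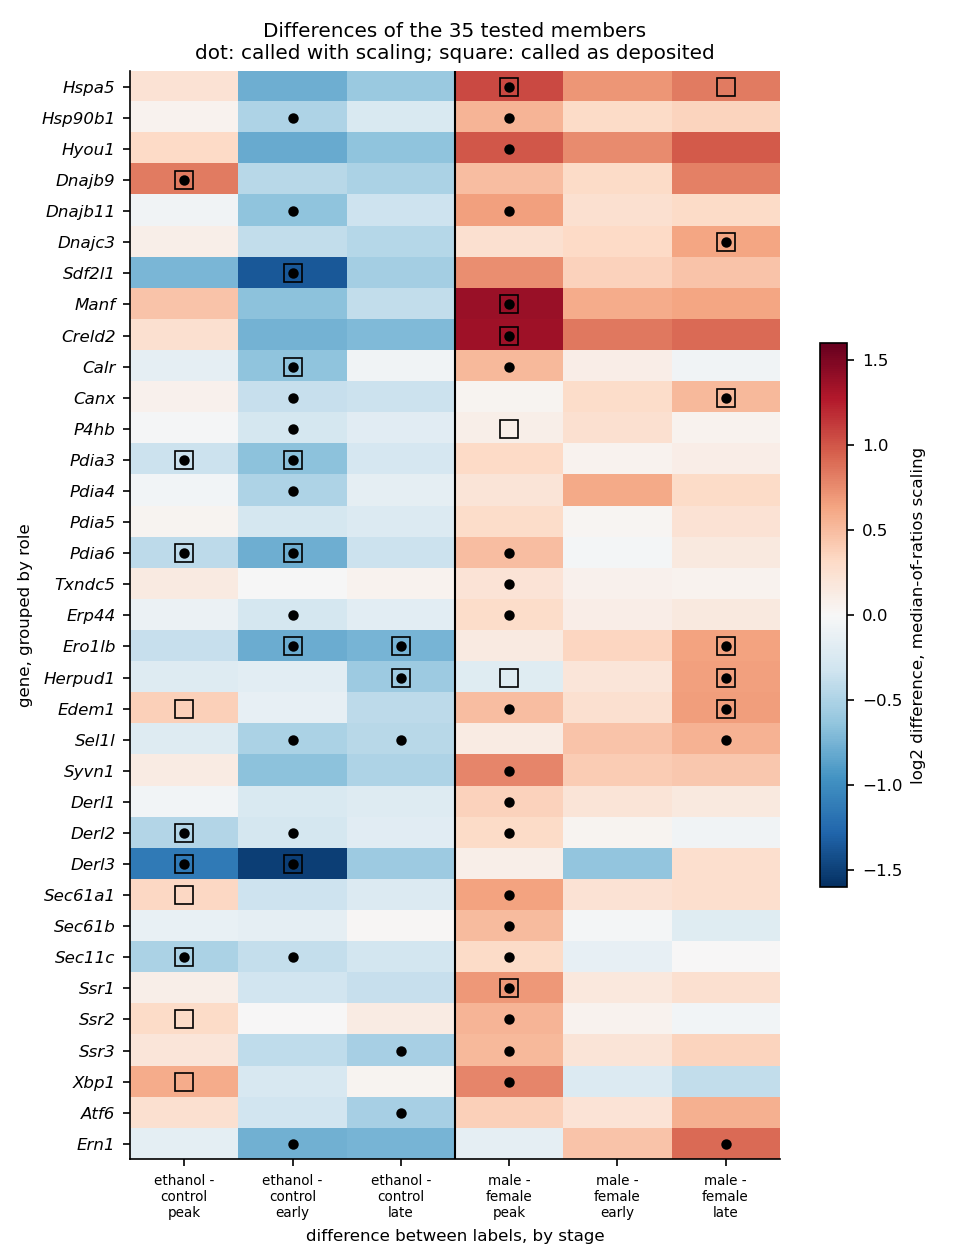
Log2 difference with median-of-ratios scaling (colour) of the 35 tested members (rows, by role) for the ethanol minus control labels and the male minus female labels at each stage (columns). Dots mark calls with the scaling and squares calls as deposited. The male minus female column at peak holds 21 dots and the ethanol minus control column at early resolution 16.

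At early resolution no member was called between the sex labels, higher (beside 0.374% of genes) or lower (beside 0.222%). The same held with the scaling (beside 0.978% and 0.863%). At an unadjusted p under 0.05 there were 11 members, and 7 with the scaling. The share of all genes at that threshold is not given here, so these 2 numbers say nothing particular to the members. Pdia4, an isomerase, had the smallest p (0.63 ± 0.16, adjusted p = 0.062, limma). Its values were 83.1, 213, 126 and 133 TPM in control male and 67.3, 86.6, 67.2 and 56.1 TPM in control female. The difference of Hspa5 was 0.74 with a 95% interval from 0.23 to 1.24, so an effect as large as at peak lay inside it. The count called at the adjusted p was 2 without early ethanol male 2 and 1 without early control female 2, early ethanol female 1 or 3, or early control male 1. With the scaling it was 3 without early ethanol female 1, 2 without early ethanol female 3 or early ethanol male 2, and 1 without early control male 1.

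At late resolution male-labelled libraries had more Herpud1, Edem1, Dnajc3, Ero1lb, Canx and Hspa5. Herpud1 was higher by 0.71 ± 0.13 (1.64-fold, adjusted p = 0.0046, limma). Edem1 was higher by 0.73 ± 0.18, Ero1lb by 0.70 ± 0.18, and Dnajc3, a BiP cochaperone that also inhibits Perk, by 0.68 ± 0.16. Canx, the membrane-bound lectin chaperone, was higher by 0.58 ± 0.16 and Hspa5 by 0.89 ± 0.26 (adjusted p = 0.049, limma). In each of these 6 genes 7 of 7 male-labelled libraries lay above the mean of the female-labelled libraries with their diet label. Thus 6 of 35 members were called higher, beside 2.46% of genes, and 0 lower, beside 0.783%. With the scaling 7 were higher, beside 6.54%, and 0 lower, beside 3.01%. The scaling dropped Hspa5 and added Sel1l and Ern1. The median member difference was 0.36, against 0.04 over all genes, and 0.30 against 0.00 with the scaling.

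Herpud1 in late control male read 441 to 549 TPM, above all 4 control female libraries (230 to 379 TPM). Edem1 read 16.5, 17.7, 24.1 and 22.1 TPM in control male and 12.8, 13.3, 8.29 and 12.8 TPM in control female. In ethanol male it read 15.7, 14.1 and 16.4 TPM and in ethanol female 6.54, 8.15 and 14.7 TPM. The control groups did not overlap, and ethanol female 3 lay within the range of ethanol male. Ern1 read 17.5 to 24.0 TPM in control male and 6.11 to 18.1 TPM in control female. Canx read 41.8, 46.5, 45.5 and 50.9 TPM in control male and 31.5, 35.6, 22.3 and 26.5 TPM in control female, also without overlap.

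Of these 6, Herpud1 was called whichever of the 14 late libraries was left out, Dnajc3 in 10 of the 14 fits, Edem1 in 9, Ero1lb in 6, Canx in 5 and Hspa5 in 3. The count of 6 was 1 without late control female 3, late ethanol female 1 or 2, or late ethanol male 1. It was 2 without late ethanol male 3, 3 without late control male 2, 3 or 4, and 13 without late ethanol female 3. Whether all genes gained or lost calls alike in these fits is not given here. With the scaling the count of 7 was 1 without late ethanol female 1, 3 without late ethanol female 2, late ethanol male 1 or late control male 4, 4 without late control female 1 or 3, and 11 without late control female 4.

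Neither later stage gave a call for the difference of the diet effect between sex labels, beside 0.00889% of genes at early and 0.0445% at late resolution. At an unadjusted p under 0.05 there were 1 and 2 members. The change of the sex-label difference from peak was called for 5 members at early resolution, all higher. Beside them 31.9% of all genes were called, 3325 higher and 257 lower. With the scaling this change was called for 0 members, beside 16.5%, and 7 had an unadjusted p under 0.05. The count of 5 was 8 without early ethanol female 3, and 3 without either of the other libraries of that group. At late resolution 9 members were called, 8 higher and 1 lower, beside 36.5% of genes (3892 higher and 213 lower). With the scaling 6 members were called, beside 20.2% of genes (1274 higher and 996 lower). Of these 6 members, 3 were higher (Canx, Herpud1 and Ern1) and 3 lower (Xbp1, Derl2 and Sec61b). As deposited 28 members had a positive and 7 a negative change, with a median of 0.23, against 0.34 over all genes. With the scaling 11 were positive and 24 negative, with a median of -0.18, against 0 over all genes. Herpud1 had the smallest p, with a change of 1.25 ± 0.18 (adjusted p = 7.6e-05, limma) and 0.85 with the scaling. In male-labelled libraries it was called lower at peak only as deposited, and higher at late resolution on both scales. Xbp1 changed the other way (-0.77 ± 0.31, and -1.18 with the scaling). Xbp1 kept its call in 10 of 30 fits that left out 1 library.

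Across libraries of the same group most members were high or low together. After group means were removed from scaled values, the correlation over 45 libraries had a median of 0.65 over 595 pairs of members, and 569 pairs were above 0. Hspa5 and Hyou1 correlated most closely (r = 0.98), and 31 of 35 members had r of at least 0.5 with the mean of the others. The 4 below were Herpud1 (0.40), Derl3 (0.33), Derl2 (0.16) and Ern1 (0.05). The sensor Ern1 had its closest partner in Sel1l (r = 0.73), and Atf6 in Edem1 (r = 0.91). These correlations share libraries and their scaling, and the 12 groups each supply few points. The libraries farthest above their group mean over the members were early control male 2 (0.69), early ethanol female 1 (0.65), peak ethanol female 3 (0.54) and peak control male 4 (0.49).

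**Figure D4:**
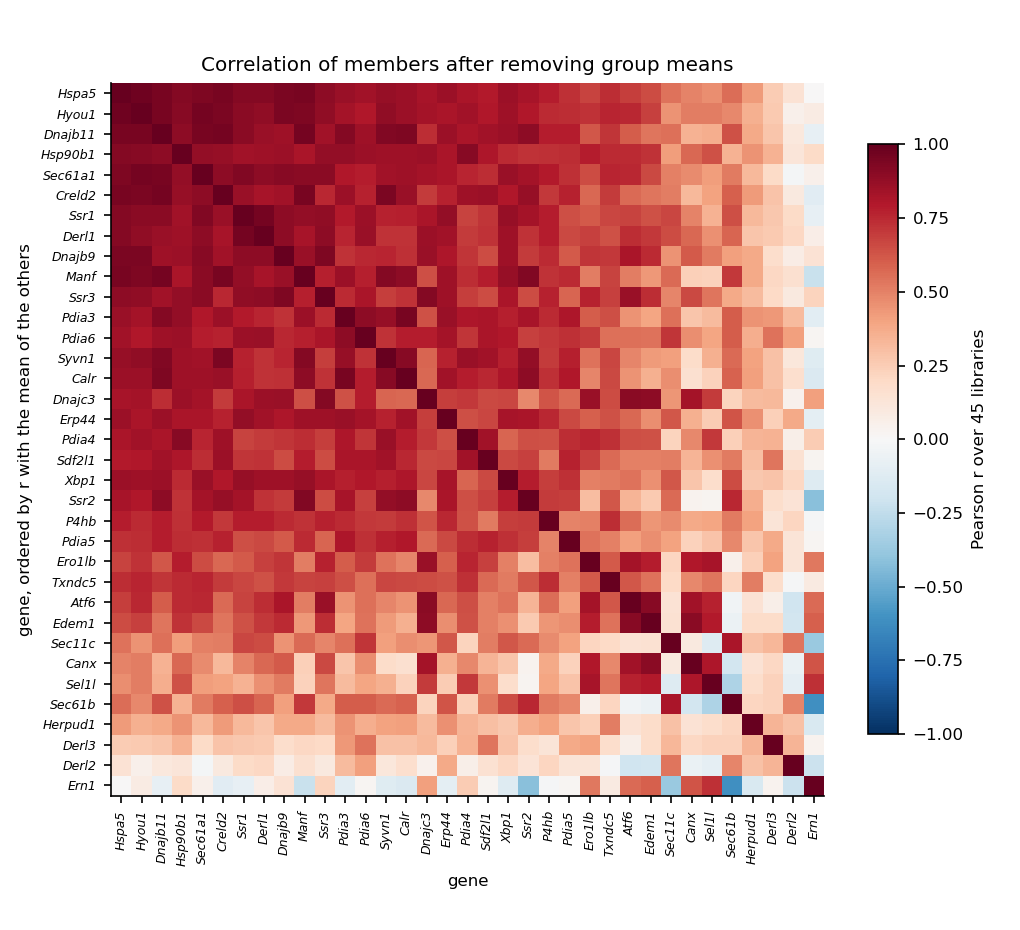
Pearson r over 45 libraries, after removing group means, between each pair of the 35 tested members (rows and columns), ordered by r with the mean of the other members. 569 of 595 pairs are above 0, and Ern1 (0.05) and Derl2 (0.16) have the lowest r with the mean of the others.

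Members with either stress element in the promoter had a median diet difference at early resolution of -0.48 (12 members), and matched members without it had -0.12 (16 tested members). With the scaling these medians were -0.66 and -0.30. The 7 members with no matched promoter had -0.15, and -0.33 with the scaling. Called lower were 4 of 12 members with an element, 2 of 16 without and 0 of 7 unmatched, beside 2.46% of genes. With the scaling these were 7 of 12, 8 of 16 and 1 of 7, beside 9.12%. At peak the medians of the diet difference were 0.08 with an element, 0.04 without and 0.40 with no matched promoter. The promoters of Pdia6 and Derl3 shown above belong to members called lower in both of these comparisons of diet labels. That of Hspa5 belongs to a member called in neither. Between sex labels at peak the scaled medians were 0.50, 0.32 and 0.54 in the same order. Whether an element bears on any of these differences was not tested.

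The rest of the secretory pathway was followed in 6 further lists. Their counts are read beside the shares of all genes called. At peak 17.3% of all genes were higher and 9.81% lower with the ethanol label as deposited, and 15% and 20.7% with the scaling. The list of Perk branch and other sensor genes had 8 of 15 genes higher and 0 lower (7 and 1 with the scaling). Atf3 was higher by 2.40 ± 0.51 (adjusted p = 6e-04, limma), Ppp1r15a, which reverses eIF2 alpha phosphorylation, by 1.27 ± 0.19 and Atf4 by 0.74 ± 0.11. The list of other ER folding genes had 5 of 23 higher and 2 lower (3 and 4 with the scaling), among them Fkbp11, a prolyl isomerase, at -1.18 ± 0.17 (adjusted p = 1.1e-06, limma). Other degradation genes had 1 of 21 higher and 1 lower (0 and 2 with the scaling). Other translocation and glycosylation genes had 4 of 27 higher and 1 lower (0 and 1), and ER to Golgi genes had 4 of 24 higher and 0 lower (1 and 0). Secreted plasma proteins had 10 of 25 higher and 1 lower (3 and 2).

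At early resolution 14.3% of all genes were higher and 2.46% lower with the ethanol label as deposited, and 7.62% and 9.12% with the scaling. As deposited the folding list had 2 of 23 genes higher (Txndc12 and Cnpy2) and 1 lower (Fkbp11), and the transport list had 1 of 24 higher (Sar1b). The degradation and translocation lists had 0 called. With the scaling 0 genes of these 4 lists were higher. Lower were 5 of 23 folding, 4 of 21 degradation, 4 of 27 translocation and 2 of 24 transport genes. The list of Perk branch and other sensor genes had 1 of 15 higher and 0 lower (1 and 1 with the scaling). The plasma protein list had 9 of 25 higher and 1 lower (2 and 1 with the scaling), and albumin (Alb), the main secreted protein of hepatocytes, was higher by 0.70 ± 0.14 (adjusted p = 0.00043, limma). At late resolution 8.82% of all genes were higher and 3.98% lower with the ethanol label as deposited, and 8.56% and 12.5% with the scaling. The folding list had 4 of 23 genes higher and 0 lower (2 and 2 with the scaling). Degradation genes had 0 of 21 higher and 1 lower (0 and 8), and translocation genes 0 of 27 and 1 (0 and 3). Transport genes had 0 of 24 higher and 1 lower (0 and 5). Perk branch and other sensor genes had 0 of 15 higher and 0 lower (0 and 1). Plasma proteins had 9 of 25 higher and 2 lower (6 and 2).

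Between sex labels at peak 4.26% of all genes were higher and 46.7% lower as deposited, and 16.2% and 15.5% with the scaling. The translocation list had 3 of 27 genes higher and 3 lower (15 and 0 with the scaling), the transport list 5 of 24 higher and 3 lower (14 and 1), and the folding list 3 of 23 higher and 5 lower (10 and 0). The degradation list had 0 of 21 higher and 10 lower, a share near that of all genes, and 6 and 1 with the scaling. The list of Perk branch and other sensor genes had 1 of 15 higher and 5 lower (3 and 2). The plasma protein list had 7 of 25 higher and 3 lower (15 and 0). Hemopexin (Hpx) and haptoglobin (Hp), both acute phase plasma proteins, were higher by 1.32 ± 0.30 and 1.26 ± 0.33 (adjusted p = 0.00073 and 0.0025, limma). Trib3, a Perk branch target, was lower (adjusted p = 0.00023, limma), and also with the scaling (-0.74).

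The 8 genes outside the list whose 12 group means followed the mean of the members most closely, among 5588 genes above 6.34 TPM, were Scfd1 (r = 0.942), Uso1 (0.931), Wdr3 (0.930), Arcn1 (0.925), Ddx1 (0.921), Uggt1 (0.917), Yipf5 (0.917) and Eif2s1 (0.916). Scfd1, Uso1 and Arcn1 serve vesicle transport between ER and Golgi, and Uggt1 marks misfolded glycoproteins for another round with Calr and Canx. The roles of Wdr3, Ddx1, Yipf5 and Eif2s1 are not described here, which does not mean that they lack one in this pathway. The group means were as deposited, and the ranking is a description in which no shared function was tested.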

How the data were processed

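RNA was measured in 45 liver libraries made with a stranded mRNA kit, per the labels' protocols. The genome build was mm10, per the submitters' processing notes. For the aligner, counter and annotation the sources used here give no name. The deposited table has 24972 rows, and its values sum to 999999 to 1000001 per library, so the authors' values were read as TPM. TPM keep no depth, and counting precision is unknown. After 26 names that had turned into dates were left out, 24946 genes remained.

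Values were taken as log2(TPM + 0.5). The 11244 genes whose mean reached 0.5 TPM were tested with limma 3.58.1 in R 4.3.3, using 12 group means and a variance trend (33 residual degrees of freedom), and the Benjamini-Hochberg adjustment ran over all of them. The procedure was tested on simulated data. The members, lists and settings were chosen with earlier results of these data known. All 36 members could be named, with the 4 smallest p among the calls of each pathway list in a comparison, and the 8 genes whose group means were most alike. Alternatives were median-of-ratios scaling, quantile normalization, other pseudocounts and filters, no variance trend, array weights, a replicate block, single stages, a stricter threshold, and leaving out each library. Comparisons within a label, and leaving out libraries with the scaling, were chosen after seeing the data.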

Additional observations from a re-analysis of the deposited data

Results flagged for a closer look

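Of 324 sets of 4 libraries (a member in a group), 22 held a library far from the other 3 (6.79%), and chance gives about 5%. Peak ethanol female 3 stood apart in 6 members: Hspa5 at 556 TPM (others 221 to 257), Manf at 253 TPM (58 to 76), Dnajb11 at 66.1 TPM (33.7 to 36.1), Creld2 at 61 TPM (17.9 to 21), Ssr2 at 186 TPM (130 to 135) and Sdf2l1 at 4.52 TPM (1.97 to 2.09). Peak control male 4 stood apart in 6: P4hb at 296 TPM (242 to 246), Pdia4 at 109 TPM (49.1 to 55.9), Creld2 at 108 TPM (26 to 38.1), Syvn1 at 33.8 TPM (13.7 to 16.9), Erp44 at 16.8 TPM (13.9 to 14) and Sdf2l1 at 14 TPM (3.84 to 5.26). Early control female 2 stood apart in 4: Sel1l at 43.3 TPM (28.2 to 29.8), Dnajc3 at 41.8 TPM (22.3 to 25), Ero1lb at 17.5 TPM (8.26 to 9.79) and Sdf2l1 at 10.4 TPM (5.85 to 6.24). Members of 1 library share that library, so these are not separate events.

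The other libraries stood apart in 1 member each. Derl3 was at 8.26 TPM in early control male 2 (others 1.45 to 2.25) and at 1.1 TPM in peak ethanol male 4 (0.317 to 0.424). Edem1 was at 10.4 TPM in early ethanol male 2 (15.9 to 16.2) and at 8.29 TPM in late control female 3 (12.8 to 13.3). Pdia3 was at 108 TPM in peak ethanol male 1 (119 to 121), and Sec61b at 67.7 TPM in late control female 4 (92.3 to 94.9).

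In 15 cases the difference between labels changed from peak by the test of the change itself. For ethanol minus control labels this was Edem1 at late resolution (-0.80), beside 3.98% of all genes called. For male minus female labels at early resolution it was Canx (0.63), P4hb (0.53), Pdia4 (0.76), Herpud1 (0.76) and Sel1l (0.70), beside 31.9% of all genes called (3325 higher and 257 lower). None of these 5 was called with the median-of-ratios scaling. At late resolution it was Dnajc3 (0.77), Canx (0.89), P4hb (0.36), Erp44 (0.26), Ero1lb (0.89), Herpud1 (1.25), Sel1l (0.84), Ern1 (1.43) and Xbp1 (-0.77), beside 36.5% of all genes called (3892 higher and 213 lower). With the scaling Dnajc3, P4hb, Erp44, Ero1lb and Sel1l were not called, and P4hb (-0.04) and Erp44 (-0.14) changed direction.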

How the results depend on the processing

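Counts are of the 35 members called. Ethanol against control labels gave 10 at peak, 6 at early and 2 at late resolution, and male against female labels 6, 0 and 6. Median-of-ratios scaling gave 6, 16 and 5 for the diet labels, 21 for the sex labels at peak, and 2 and 0 for the change of the diet difference (late) and of the sex difference (early). It turned, at peak between sex labels, P4hb (0.09), Txndc5 (0.22), Erp44 (0.29), Derl2 (0.31) and Sec11c (0.31), and in the late change of the sex difference P4hb (-0.04) and Erp44 (-0.14). Quantile normalization gave 12 (diet, early), 16 (sex, peak), 3 (late diet change), 1 and 2 (early and late sex change), and turned Txndc5 (0.10), Erp44 (0.23), Derl2 (0.26) and Sec11c (0.19) at peak and Erp44 (-0.08) in the late sex change. Over all genes it called 1930, 3356, 1290, 1878 and 2027 in those comparisons, in the same order. Array weights, whose estimation stopped before converging, gave 16 and 11 (diet, early and late), 17, 21 and 16 (sex, 3 stages), 10 (diet by sex, peak), 8 and 8 (diet changes) and 14 and 15 (sex changes). Over all genes these weights called 4775 and 3712 (diet), 7760, 2857 and 3505 (sex) and 2141 (diet by sex). For the changes they called 2171 and 2400 genes (diet) and 6007 and 6144 (sex). They turned Derl2 (0.00, diet, early), Pdia6 (0.00) and Derl1 (-0.06, both sex, peak). The late diet change was 0 with no filter (290 of all genes called), 2 with a filter at 5 TPM (279) and 3 with stages fitted alone (470). Stages fitted alone also gave 1 for sex labels at late resolution (75 of all genes called). A threshold of 0.01 gave 3 and 0 (diet, peak and late), 2 and 1 (sex, peak and late), 0 (late diet change) and 2 and 4 (sex changes). The share of all genes at that threshold is not given here, so these counts are not read as results about the members. The cause of these shifts was not tested.

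The counts with 1 library left out are given without the share of all genes, so their shifts are not read as particular to the members. Leaving out 1 library gave 6 to 11, 4 to 9 and 1 to 7 for diet labels over the 3 stages and 5 to 12, 0 to 2 and 1 to 13 for sex labels. With the scaling these were 4 to 7, 6 to 24 and 2 to 10, and 14 to 23, 0 to 3 and 1 to 11. The diet changes gave 0 to 6 and 0 to 5, the sex changes 3 to 8 and 7 to 11, and diet by sex 0. Between sex labels at peak Derl1, whose values ran from -0.03 to 0.07, turned when peak control male 4 (-0.03), peak control female 1 (-0.02) or peak ethanol female 1 (-0.02) was dropped. Derl2 turned when control female 4 (0.00) or ethanol female 2 (0.03) of the peak was dropped.

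The labels number libraries alike across groups, and no clear pairing by number was seen. With 3 or 4 libraries in a group, the correlations below cannot exclude a pairing. Same-numbered ethanol and control libraries correlated at -0.371 to 0.25 over 21 pairs, 6 of them best with their own number, and male and female libraries at -0.433 to 0.527 over 22 pairs, 7 best. A replicate block gave 0 for diet labels at late resolution (580 of all genes called) and 0 for the late diet change (0 of all genes called). It gave 3 for the early sex change, for which the share of all genes is not given here. TPM carry no depth, so counting error could not be set beside any value.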
